A study of Mus musculus with 12 samples.

Results

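The transcripts of 7 matrix metalloproteinase genes (Mmp2, Mmp3, Mmp9, Mmp12, Mmp13, Mmp14 and Mmp19) and of 3 genes for their tissue inhibitors (Timp1, Timp2 and Timp3) were followed in the mouse striatum after ischemic stroke. These 10 genes were chosen by symbol from the 54532 gene IDs of the count tables, each symbol matched 1 ID, and all 10 passed the filter on low counts that left 19822 genes for testing. Mmp3, Mmp12 and Mmp13 passed it through the groups in which they were high. Tissue came from C57BL/6J mice labelled wild type (WT), cGAS-KO or STING-KO, at 7 and at 14 days after the stroke. Both lines were made with CRISPR-Cas9, and every group had a stroke, so no uninjured group was sequenced. The 6 groups held 2 libraries each and 12 in all. cGAS detects cytosolic DNA and makes a cyclic dinucleotide that switches on STING. The comparisons ask how loss of either changes gene expression in the injured brain.

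Matrix metalloproteinases are zinc-dependent endopeptidases that cut collagens, laminins, proteoglycans and many surface proteins. Most are secreted as inactive precursors whose propeptide is removed by plasmin, furin or another metalloproteinase, and tissue inhibitors of metalloproteinases (TIMPs) block the active enzymes by binding the catalytic domain. In the brain after stroke they are known for opening the basement membrane and tight junctions of vessels early on, and for matrix remodelling, vessel growth and scar formation later. The values below are transcript levels and carry no information on proenzyme activation or enzyme activity.

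Library totals ran from 15956242 to 22126213 counts. Levels are given as CPM, counts scaled to a common normalised library total, on which 3 counts equal 0.133 to 0.195 CPM depending on the library. Intervals and floors cover counting error only. Each difference is a log2 change with its SE (written after ±), tested in edgeR by quasi-likelihood over all 12 libraries, with p-values adjusted by Benjamini-Hochberg over the 19822 genes and a threshold of 0.05. The labels do not say whether the libraries of a group came from separate mice, so a p-value here reflects only library-to-library spread, which may be technical. Neither targeted transcript was low where its label would place it at 7 days: Cgas stood at 3.25 and 2.97 CPM in WT and 5.55 and 5.66 CPM under the cGAS-KO label, and Tmem173, the gene of STING, at 2.80 and 2.71 CPM in WT and 20.9 and 23.8 CPM under the STING-KO label. At 14 days Tmem173 was lower in STING-KO than in WT (-2.51 ± 0.27, adjusted p = 8.19e-05), and Cgas in cGAS-KO did not pass (-0.98 ± 0.28, adjusted p = 0.27). Groups are therefore named by their labels only. Striatal markers also differed between groups: Drd1, the dopamine receptor of direct-pathway striatal neurons, was at 4.77 and 4.45 CPM in WT at 7 days and at 376 and 325 CPM in STING-KO at 14 days. The 10 markers of striatal projection neurons summed to 343 to 356 CPM in WT, 142 to 431 CPM in cGAS-KO and 181 to 478 CPM in STING-KO at 7 days, below the sums of 10 markers of cortical and hippocampal excitatory neurons, which were 6639 to 7756, 1370.3 to 2016 and 946 to 1612 CPM. At 14 days striatal markers were also the lower list in WT (824 to 1044 against 1642 to 2369 CPM) and the higher one in cGAS-KO and STING-KO. In bulk tissue, fewer cells of a type and less RNA per cell cannot be told apart, and this holds for every difference below.

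The 7 proteases share a catalytic site in which 3 histidines hold the zinc ion. The coding stretch of that site is shown for each gene because it is what makes the set a family; capitals mark the 3 histidine codons. Sequences are from GENCODE M21 (GRCm38, which is mm10), and each stretch of 33 bases occurs once in its coding sequence.
Mmp2: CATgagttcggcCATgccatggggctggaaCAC
Mmp9: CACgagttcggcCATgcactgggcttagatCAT
Mmp14: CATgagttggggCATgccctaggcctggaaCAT
Mmp19: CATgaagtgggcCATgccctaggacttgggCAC
Mmp3: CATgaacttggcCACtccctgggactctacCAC
Mmp12: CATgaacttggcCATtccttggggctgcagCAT
Mmp13: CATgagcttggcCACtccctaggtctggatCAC

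At 7 days all 10 genes were higher than in WT under the cGAS-KO label, and all 10 under the STING-KO label. Of all tested genes, 27.8% were higher and 22.4% lower in cGAS-KO (50.3% in all), and 26.3% were higher and 22.6% lower in STING-KO (48.9%). For all 10 genes the libraries did not overlap with WT in either comparison, as for 80.2% and 80.9% of all tested genes. The median log2 change of the 10 genes was 3.82 in both comparisons, against 0.04 and 0.03 over all genes tested; with the genes that had 0 counts in WT set at their lower bound it was 3.65 in cGAS-KO and 3.82 in STING-KO. Both comparisons use the same 2 WT libraries. At 14 days none of the 10 differed between cGAS-KO and WT, where 6 of all tested genes (0.0303%) did, each of them lower. An unadjusted edgeR p below 0.05 was reached by 3 of the 10, all lower. Over all 19822 tested genes 2185 reached it, in either direction. The libraries of 6 of the 10 did not overlap, against 40.9% of all genes. In STING-KO at 14 days 6 of the 10 were lower than in WT (Mmp2, Mmp3, Mmp12, Mmp14, Mmp19 and Timp1), and none was higher, against 17.4% lower, 16.5% higher and 33.9% in either direction over all genes; 8 of the 10 did not overlap, against 63.5%. The plot of levels by library shows the 3 shapes among the genes: those near or at 0 counts in WT at 7 days, those present in every library with large differences between groups, and Timp3, with the smallest changes of the 10 against WT at 7 days.

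**Figure D1:**
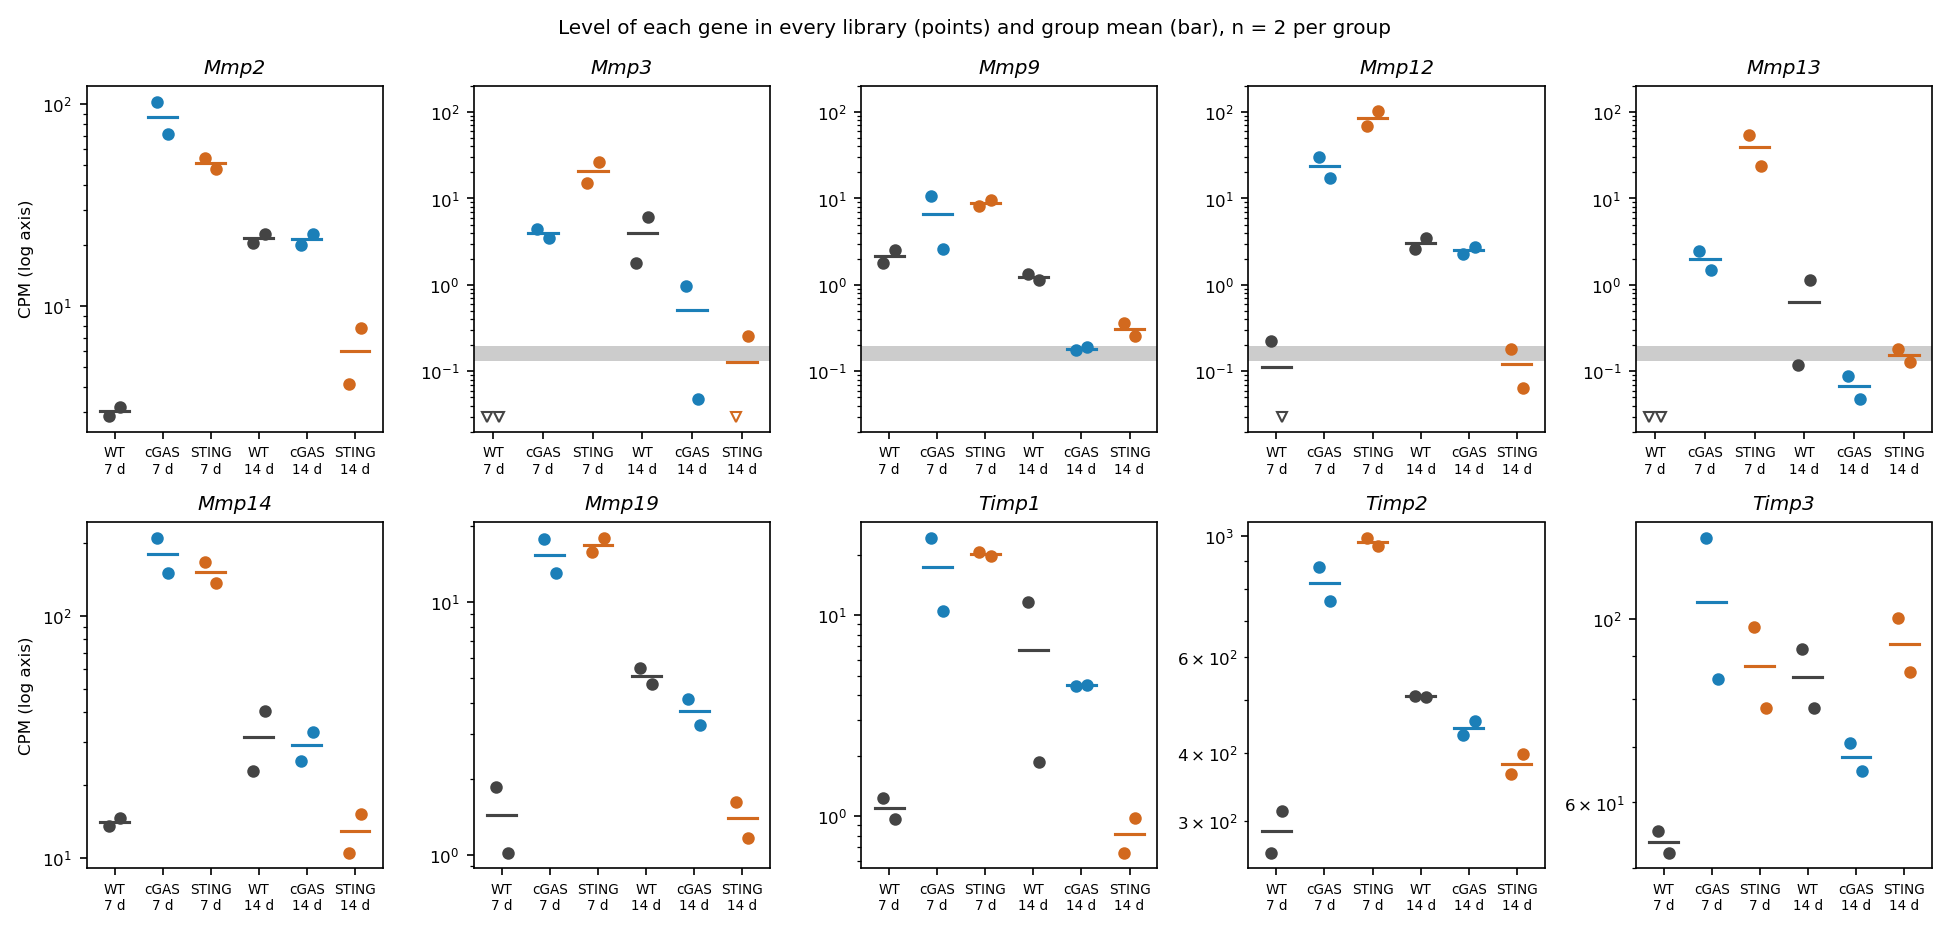
Level of each of the 10 genes in CPM (log axis) in the 6 groups: points are the 2 libraries, bars their mean, and open triangles at the bottom libraries with 0 counts; the grey band is the range of 3 counts per library. Mmp3 and Mmp13 had 0 counts in both WT libraries at 7 days, and both labelled knockouts lay above WT at 7 days for every gene, narrowly for Mmp9, where the highest WT library was at 2.56 CPM and the lower cGAS-KO library at 2.57 CPM.

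Mmp2 encodes gelatinase A, a secreted protease made mainly by fibroblasts and vascular cells, and Mmp14 the membrane-type protease that activates pro-Mmp2 at the cell surface together with Timp2. Mmp2 (ENSMUSG00000031740; mm10, chromosome 8, 92827291 to 92853420, plus strand) stood at 2.86 and 3.17 CPM in WT, 103 and 70.9 in cGAS-KO and 54.3 and 47.9 in STING-KO at 7 days. The groups did not overlap, and cGAS-KO was the higher of the labelled knockouts in both libraries. The change against WT was 4.85 ± 0.29 (28.8-fold; edgeR adjusted p = 3.44e-07) in cGAS-KO and 4.08 ± 0.29 (16.9-fold; adjusted p = 7.27e-07) in STING-KO. At 14 days Mmp2 was at 20.6 and 22.8 CPM in WT, 20.2 and 22.9 in cGAS-KO and 4.14 and 7.81 in STING-KO. WT and cGAS-KO overlapped almost fully then, with a change of -0.01 ± 0.24 (adjusted p = 0.995), while both STING-KO libraries lay below, with a change of -1.87 ± 0.27 (adjusted p = 0.000417).

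Mmp14 (ENSMUSG00000000957; chromosome 14, 54431612 to 54445364, plus strand) was at 13.5 and 14.6 CPM in WT, 209 and 149.7 in cGAS-KO and 166 and 136 in STING-KO at 7 days. The labelled knockouts overlapped each other and stood far above WT: the changes were 3.67 ± 0.30 (12.8-fold; edgeR adjusted p = 2.68e-06) and 3.42 ± 0.30 (10.7-fold; adjusted p = 4.08e-06). At 14 days it was at 22.8 and 40.4 CPM in WT, 25.2 and 33.2 in cGAS-KO and 10.5 and 15.2 in STING-KO. STING-KO lay below WT by -1.30 ± 0.29 (adjusted p = 0.00583). That call was lost without STING-KO replicate 1 (-1.05, adjusted p = 0.0687) or WT replicate 2 (-0.84, adjusted p = 0.0515). For cGAS-KO against WT at 14 days the change was -0.12 ± 0.28 (adjusted p = 0.917), and it took the opposite sign without cGAS-KO replicate 1 (0.06) or WT replicate 2 (0.35).

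Mmp9, gelatinase B, is the protease most often tied to early barrier opening after stroke and is stored in neutrophils. Mmp9 (ENSMUSG00000017737; chromosome 2, 164940780 to 164955850, plus strand) stood at 1.79 and 2.56 CPM in WT, 10.6 and 2.57 in cGAS-KO and 8.09 and 9.48 in STING-KO at 7 days. The lower cGAS-KO library sat next to the higher WT library, whereas both STING-KO libraries were clear of WT. The change was 1.56 ± 0.52 (edgeR adjusted p = 0.0253) in cGAS-KO and 2.00 ± 0.51 (adjusted p = 0.00603) in STING-KO. In cGAS-KO the call rested on replicate 1, without which the change was 0.19 (adjusted p = 0.736) and without replicate 2 2.20 (adjusted p = 0.000193); it was also lost without WT replicate 1 (1.32, adjusted p = 0.14), without WT replicate 2 (1.85, adjusted p = 0.065) and in a fit of only the libraries compared (1.54, adjusted p = 0.104). In STING-KO it was lost without WT replicate 1 (1.75, adjusted p = 0.0543). Of 10 neutrophil markers, Ly6g, Elane, Cxcr2 and Ngp had 0 counts in WT at 7 days, and Ly6g reached at most 0.103 CPM in any library; the list summed to 8.44 to 9.54 CPM in WT, 118 to 149 in cGAS-KO and 98.9 to 137 in STING-KO, and its part in the Mmp9 difference was not tested.

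At 14 days Mmp9 was at 1.34 and 1.15 CPM in WT, 0.178 and 0.189 in cGAS-KO and 0.360 and 0.260 in STING-KO. All 4 knockout-labelled libraries were below both WT libraries, but on 8 counts in cGAS-KO and 10 in STING-KO against 44 in WT. The changes were -2.72 ± 1.03 (edgeR adjusted p = 0.375; unadjusted p = 0.0218) and -1.97 ± 1.0 (adjusted p = 0.151), which did not pass; under DESeq2 both did, at adjusted p = 0.0497 and 0.0262. The neutrophil list then summed to 139 to 147 CPM in WT, 142 to 164 in cGAS-KO and 11.5 to 37.4 in STING-KO, with Ly6g at 0 in all 6 libraries. Only 4 of the 10 markers could be tested, and the sums do not show their typical change. The median log2 change of the 4 against WT was -2.93 in cGAS-KO. None was called there, and 3 were lower at an unadjusted edgeR p below 0.05, which 2185 of all 19822 tested genes reached in either direction. In STING-KO the median was -2.89 and 3 were called lower, where 17.4% of all tested genes were. The part of these markers in the Mmp9 differences was not tested.

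Mmp3, Mmp12 and Mmp13 are the inducible secreted enzymes of the set, a stromelysin that also activates other proenzymes, the macrophage elastase and an interstitial collagenase. Mmp3 (ENSMUSG00000043613; chromosome 9, 7445822 to 7455975, plus strand) had 0 counts in both WT libraries at 7 days, 4.40 and 3.50 CPM in cGAS-KO and 15 and 26.3 CPM in STING-KO. Taking 3 counts per library as the floor of WT (0.161 CPM), it was at least 24.6-fold higher in cGAS-KO and at least 128-fold higher in STING-KO (edgeR adjusted p = 0.00194 and 5.2e-05). The fitted log2 changes of 9.18 and 11.57 depend on the prior count and are no bound. At 14 days Mmp3 was at 1.81 and 6.15 CPM in WT, 0.979 and 0.0473 in cGAS-KO and 0 and 0.260 in STING-KO. The libraries of each group differed widely from each other, and WT was above both labelled knockouts.

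The Mmp3 change at 14 days was -2.92 ± 0.83 in cGAS-KO (edgeR adjusted p = 0.269; unadjusted p = 0.00472) and -4.93 ± 1.19 in STING-KO (adjusted p = 0.00853). STING-KO held 4 counts in all, and the ratio of WT to STING-KO was 32.4 with a counting interval of 12.4 to 121. The call was lost without STING-KO replicate 1 (-3.91, adjusted p = 0.102) or WT replicate 2 (-3.80, adjusted p = 0.0655); without STING-KO replicate 2, which leaves that group at 0 counts, the fitted change was -9.23, and without WT replicate 1 it was -5.56. 

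Mmp12 (ENSMUSG00000049723; chromosome 9, 7344381 to 7369499, plus strand) stood at 0.224 and 0 CPM in WT, 30.2 and 17.4 in cGAS-KO and 69.0 and 103 in STING-KO at 7 days. The groups were ordered without overlap, and WT held 4 counts in all. On counts the ratio to WT was 218 (counting interval 84.7 to 801) in cGAS-KO and 809.7 (316 to 2974) in STING-KO; the fitted changes of 7.70 ± 0.59 and 9.56 ± 0.56 (edgeR adjusted p = 4.89e-07 and 9.4e-08) rose to 11.78 and 13.63 without WT replicate 1 and fell to 6.68 and 8.54 without WT replicate 2. At 14 days the level was 2.63 and 3.51 CPM in WT, 2.27 and 2.74 in cGAS-KO and 0.180 and 0.0651 in STING-KO. WT and cGAS-KO overlapped (-0.30 ± 0.41, adjusted p = 0.827). STING-KO was lower by -4.55 ± 0.78 (adjusted p = 0.000678), or -5.42 without its replicate 1; on counts, 109 in WT against 4 in STING-KO, the ratio of WT to STING-KO was 24.7 (9.37 to 92.3).

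Mmp13 (ENSMUSG00000050578; chromosome 9, 7272514 to 7283331, plus strand) had 0 counts in both WT libraries at 7 days, 2.47 and 1.49 CPM in cGAS-KO and 54.7 and 23.6 CPM in STING-KO. It was thus at least 12.3-fold higher than WT in cGAS-KO and at least 243-fold higher in STING-KO (edgeR adjusted p = 0.00164 and 1.04e-06). The latter bound is 147-fold without STING-KO replicate 1, the higher library. At 14 days it was at 0.117 and 1.15 CPM in WT, 0.0890 and 0.0473 in cGAS-KO and 0.180 and 0.130 in STING-KO, with 23, 3 and 5 counts. WT replicate 2 carried most of the WT counts, replicate 1 lay below both STING-KO libraries and above both cGAS-KO libraries, and neither change passed (-3.12 ± 1.36, adjusted p = 0.428, and -2.01 ± 1.25, adjusted p = 0.236). Without WT replicate 2 the STING-KO change was 0.39.

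Mmp19 is a secreted protease found in fibroblasts, vessels and macrophages. Mmp19 (ENSMUSG00000025355; chromosome 10, 128790910 to 128800824, plus strand) was at 1.85 and 1.02 CPM in WT, 17.8 and 13 in cGAS-KO and 15.8 and 17.9 in STING-KO at 7 days. The labelled knockouts overlapped each other, at 3.42 ± 0.32 (10.7-fold; edgeR adjusted p = 4.7e-06) and 3.56 ± 0.32 (11.8-fold; adjusted p = 3.47e-06) above WT. At 14 days it was at 5.49 and 4.72 CPM in WT, 4.14 and 3.26 in cGAS-KO and 1.62 and 1.17 in STING-KO, where the change against WT was -1.86 ± 0.36 (adjusted p = 0.00218). Mmp19 shares 28.3% of its 3533 exon bases with genes on the opposite strand. The longer overlap is with Tmem198b, which was at 6.90 and 5.73 CPM in WT, 21.8 and 16.2 in cGAS-KO and 13.4 and 19.0 in STING-KO at 7 days. Whether reads were counted by strand is not given in the sources used here, so the share of Tmem198b in the Mmp19 counts cannot be told apart.

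**Figure D2:**
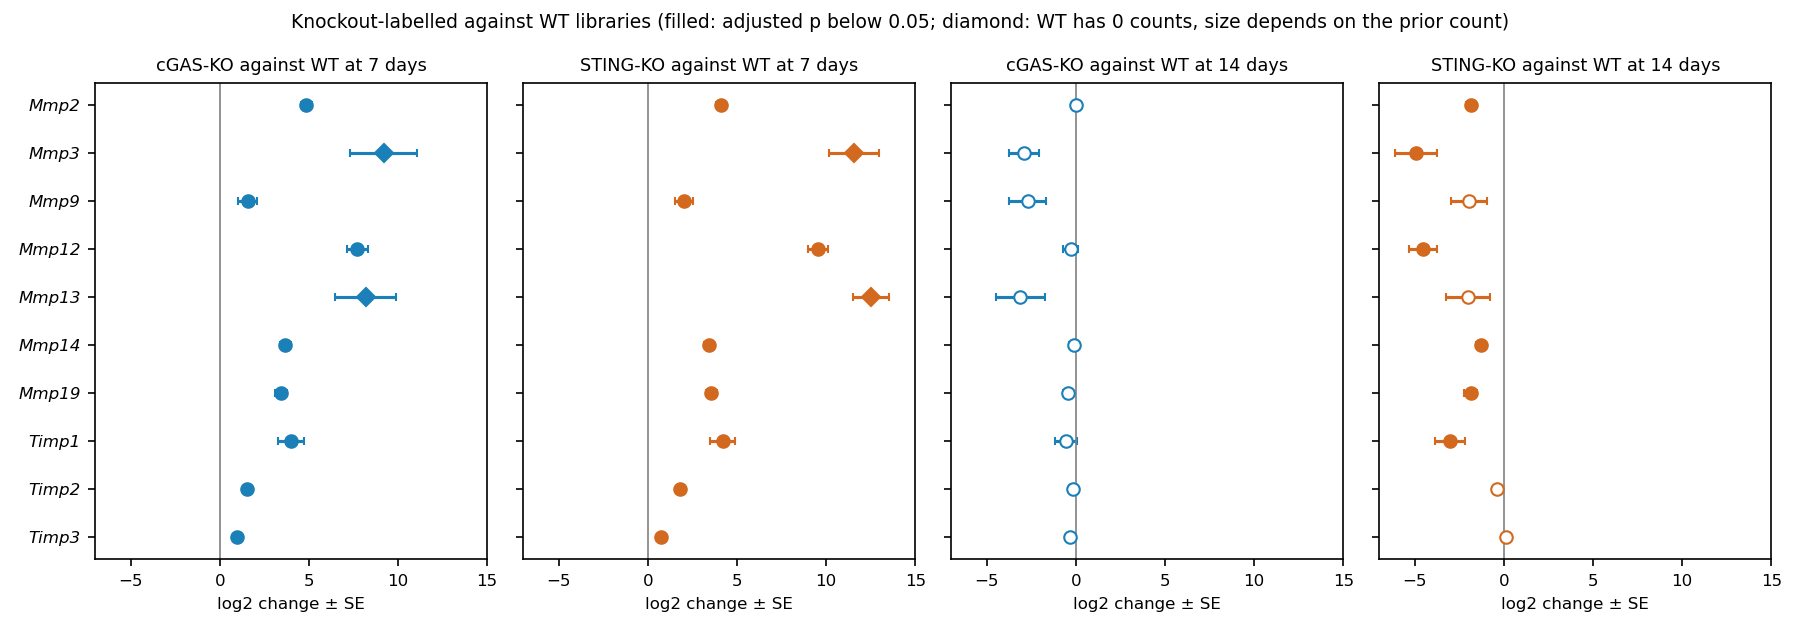
Log2 change ± SE of the 10 genes in the libraries labelled cGAS-KO (blue) or STING-KO (orange) against WT at 7 and 14 days; filled symbols have an edgeR adjusted p below 0.05, and diamonds mark genes with 0 counts in WT, whose fitted size depends on the prior count. All 10 symbols are filled and to the right of 0 at 7 days in both panels; at 14 days none is filled for cGAS-KO, and 6 are filled to the left of 0 for STING-KO.

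Timp1 is the injury-induced inhibitor of the set, Timp2 is the constitutive inhibitor that also takes part in pro-Mmp2 activation, and Timp3 is held in the matrix and also inhibits ADAM proteases. Timp1 (ENSMUSG00000001131; chromosome X, 20870166 to 20874735, plus strand) stood at 1.23 and 0.971 CPM in WT, 24.1 and 10.5 in cGAS-KO and 20.6 and 19.6 in STING-KO at 7 days. The labelled knockouts overlapped and both were above WT, by 3.96 ± 0.73 (15.6-fold; edgeR adjusted p = 0.000934; 3.21 without cGAS-KO replicate 1) and 4.19 ± 0.72 (18.2-fold; adjusted p = 0.000641). At 14 days it was at 11.6 and 1.87 CPM in WT, 4.45 and 4.49 in cGAS-KO and 0.660 and 0.977 in STING-KO. The WT libraries lay on either side of cGAS-KO and both lay above STING-KO.

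The Timp1 change at 14 days was -0.58 ± 0.62 in cGAS-KO (edgeR adjusted p = 0.767), with the opposite sign, 1.25, without WT replicate 1. In STING-KO it was -3.03 ± 0.85 (adjusted p = 0.0183). That call was lost without WT replicate 1 (-1.20, adjusted p = 0.272), STING-KO replicate 1 (-2.75, adjusted p = 0.151) or STING-KO replicate 2 (-3.34, adjusted p = 0.0853), with no filter (-3.05, adjusted p = 0.0989) and in a fit of only the libraries compared (-3.04, adjusted p = 0.0501); without WT replicate 2 it was -3.84 (adjusted p = 0.00101). Timp1 lies within Syn1 on the opposite strand and shares no annotated exon base with it.

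Timp2 (ENSMUSG00000017466; chromosome 11, 118301069 to 118355740, minus strand) stood at 262 and 312 CPM in WT, 879 and 760.3 in cGAS-KO and 992 and 961 in STING-KO at 7 days. The 3 groups did not overlap, and the changes against WT were 1.52 ± 0.15 (2.86-fold; edgeR adjusted p = 9.33e-06) and 1.77 ± 0.16 (3.4-fold; adjusted p = 3.29e-06). At 14 days it was at 508 and 507 CPM in WT, 431 and 457 in cGAS-KO and 366 and 398 in STING-KO. The groups again did not overlap, with WT highest, but the changes of -0.19 ± 0.15 (adjusted p = 0.674) and -0.41 ± 0.15 (adjusted p = 0.0566) did not pass; the latter passed under DESeq2 (-0.39, adjusted p = 0.0192) and with no filter (-0.43, adjusted p = 0.038).

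Timp3 (ENSMUSG00000020044; chromosome 10, 86300372 to 86349506, plus strand) changed least at 7 days. It was at 55.4 and 52.2 CPM in WT, 125 and 84.6 in cGAS-KO and 97.6 and 77.9 in STING-KO at 7 days, changes of 0.96 ± 0.19 (1.95-fold; edgeR adjusted p = 0.00137) and 0.71 ± 0.19 (1.63-fold; adjusted p = 0.0094). The latter was lost without STING-KO replicate 1 (0.49, adjusted p = 0.109) or WT replicate 2 (0.66, adjusted p = 0.0688). At 14 days it was at 91.9 and 78.1 CPM in WT, 70.8 and 65.5 in cGAS-KO and 100.1 and 86.3 in STING-KO. Those groups lay close together, and neither change passed (-0.32 ± 0.19, adjusted p = 0.569, and 0.13 ± 0.19, adjusted p = 0.622). Timp3 shares 21.3% of its 8144 exon bases with Syn3 on the opposite strand. Syn3, a neuronal synapsin gene, went the other way at 7 days, from 11.6 and 9.10 CPM in WT to 2.96 and 3.76 CPM in cGAS-KO and 6.71 and 5.46 CPM in STING-KO.

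Levels of different genes were compared as CPM per kb of annotated exon. All annotated exons of a gene were merged for this length, whichever transcript was expressed. It was 7237 bases for Mmp12, whose coding sequence has 1419, and 1801 and 2673 bases for Mmp3 and Mmp13. A gene with a long merged length, such as Mmp12, may rank too low on this scale. On that scale the 3 inhibitors summed to 75.4 to 87.5 in WT, 217 to 268 in cGAS-KO and 278 to 289.7 in STING-KO at 7 days, and the 7 proteases to 4.17 to 4.41, 55.5 to 81.3 and 82.5 to 88.9. At 14 days the protease sum was 13.3 and 19.5 in WT, 12.3 and 13.8 in cGAS-KO and 3.64 and 5.48 in STING-KO. Timp2 made up 84.1% to 91.8% of the inhibitor sum in every library. Timp1 ranged more, from 0.694% in a STING-KO library at 14 days to 10.1% in a cGAS-KO library at 7 days. 

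The composition of the protease sum differed between the labelled knockouts at 7 days. In cGAS-KO, Mmp14 (43.1% and 45.3%) and Mmp2 (37.7% and 37.9%) made up most of it on this scale. Mmp12 was at 5.13% and 4.35%, Mmp3 at 3.01% and 3.50% and Mmp13 at 1.14% and 1.01%. In STING-KO the shares were 31.2% and 27.7% for Mmp14 and 18.1% and 17.2% for Mmp2, with Mmp13 at 23.0% and 10.7%, Mmp12 at 10.7% and 17.2% and Mmp3 at 9.35% and 17.7%. In WT at 7 days Mmp14 led with 54.2% and 55.7%, and Mmp9 took 12.2% and 16.4%, its highest shares of any library. Shares of a sum move with every other member of it and with the exon length used, and no test was made on them.

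**Figure D3:**
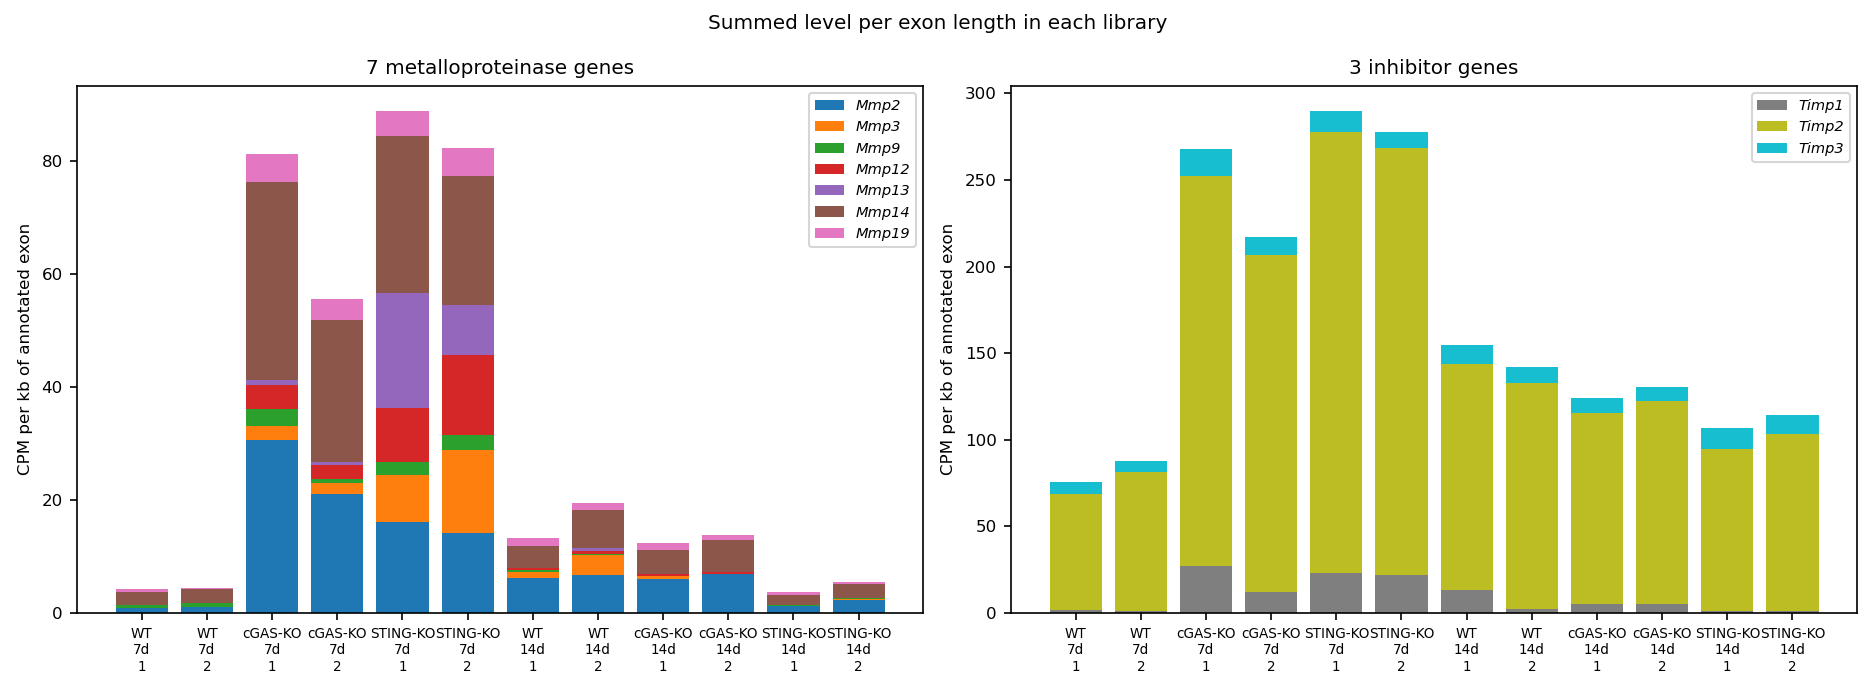
Summed level of the 7 protease genes (left) and the 3 inhibitor genes (right) in CPM per kb of annotated exon, 1 bar per library, stacked by gene. Mmp13, Mmp12 and Mmp3 widen in the STING-KO bars at 7 days, where their shares run from 9.35% to 23.0%, and Timp2 fills 84.1% to 91.8% of each inhibitor bar.

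Set directly against each other at 7 days, the labelled knockouts differed in 2 of the 10 genes, both lower in cGAS-KO than in STING-KO, where 0.0757% of all tested genes were lower, 0.0858% higher and 0.161% differed in either direction. The libraries did not overlap for 5 of the 10, against 40.9% of all genes. Mmp13, the collagenase, was lower in cGAS-KO by -4.31 ± 0.47 (19.9-fold; edgeR adjusted p = 0.0033) and Mmp12, the macrophage elastase, by -1.86 ± 0.30 (3.62-fold; adjusted p = 0.0383). In both genes each cGAS-KO library was below each STING-KO library. Without STING-KO replicate 1, the higher library for Mmp13, its change was -3.59 (adjusted p = 0.00743). The Mmp13 call was lost without cGAS-KO replicate 1 (-4.70, adjusted p = 0.0598), under the legacy quasi-likelihood fit (adjusted p = 0.0605) and in a fit of only these 4 libraries (adjusted p = 0.185). The Mmp12 call was lost without either cGAS-KO library (adjusted p = 0.0631 and 0.0504) or STING-KO replicate 2 (adjusted p = 0.127), under the legacy fit (0.126), in the fit of 4 libraries (0.269) and without the WT 7-day and STING-KO 14-day groups (0.0731).

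The third gene of the chromosome 9 group went the same way without passing: Mmp3 was at 4.40 and 3.50 CPM in cGAS-KO and 15 and 26.3 CPM in STING-KO, a change of -2.39 ± 0.55 (edgeR adjusted p = 0.142; unadjusted p = 0.00117). Mmp2 had the opposite sign, 0.77 ± 0.23 (adjusted p = 0.258; unadjusted p = 0.00638), with both cGAS-KO libraries above both STING-KO libraries. The other 6 changes lay between -0.44 (Mmp9) and 0.26 (Timp3). The 12 monocyte and macrophage markers summed to 5601 to 5897 CPM in cGAS-KO and 12579 to 15100.0 CPM in STING-KO. A sum is weighted to its most abundant genes, and the median log2 change of the 12 had the opposite sign (0.66). None of the 12 was called, and 3 were higher and 3 lower in cGAS-KO at an unadjusted edgeR p below 0.05. Over all 19822 tested genes 1758 reached that p, in either direction. The 10 fibroblast and meningeal markers summed to 2382 to 3906 CPM in cGAS-KO and 1325 to 1677 CPM in STING-KO (median 1.42, none called). The part of either list in these differences was not tested.

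At 14 days 5 of the 10 genes were higher in cGAS-KO than in STING-KO and none was lower, against 18.2% higher, 17.7% lower and 35.9% in either direction over all genes; 9 of the 10 did not overlap, against 65%. Mmp12 differed by 4.25 ± 0.79 (19.1-fold; edgeR adjusted p = 0.00137), Mmp2 by 1.86 ± 0.27 (3.62-fold; adjusted p = 0.00052), Mmp19 by 1.40 ± 0.36 (adjusted p = 0.0112), Mmp14 by 1.18 ± 0.29 (adjusted p = 0.00894) and Timp1 by 2.45 ± 0.87 (adjusted p = 0.0487). In all 5 the libraries of the groups were apart. Only Mmp2 and Mmp12 kept the call whichever of the 4 libraries was left out. Mmp14 lost it without STING-KO replicate 1 (0.92, adjusted p = 0.0979) or cGAS-KO replicate 2 (0.97, adjusted p = 0.0708), and Mmp19 without STING-KO replicate 2 (1.20, adjusted p = 0.0601) or cGAS-KO replicate 1 (1.21, adjusted p = 0.0593). Timp1 lost it without any 1 of the 4 (2.17 to 2.76, adjusted p = 0.104 to 0.26) and with no filter (adjusted p = 0.186). Without STING-KO replicate 1 the Mmp12 change was 5.11. The Mmp3 change of 2.01 ± 1.72 (adjusted p = 0.389) turned to -1.29 without cGAS-KO replicate 1.

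From 7 to 14 days most of the 10 genes rose in WT and fell in the labelled knockouts. In WT 9 of the 10 genes were higher at 14 days, where 24.1% of all genes were higher, 19.7% lower and 43.9% differed; the days did not overlap in any of the 10, as in 76.2% of all genes. Mmp9 was lower at 14 days in both libraries and did not pass (-0.81 ± 0.66, edgeR adjusted p = 0.345). Mmp2 rose by 2.84 ± 0.29 (7.17-fold; adjusted p = 2.17e-05), Mmp19 by 1.84 ± 0.35, Mmp14 by 1.17 ± 0.29, Timp2 by 0.82 ± 0.15 and Timp3 by 0.66 ± 0.19. Mmp3 was at least 24.7-fold above the floor of the 7-day libraries, or 38.2-fold and 11.3-fold without 14-day replicates 1 and 2. Mmp13 was at least 3.95-fold above it, a bound that rests on 14-day replicate 2, since replicate 1 (0.117 CPM) lay under the floor of 0.161 CPM. Mmp12 had a count ratio of 28.8 (10.9 to 108). Several of these rest on single libraries. Timp1, with a rise of 2.60 ± 0.78 (adjusted p = 0.0193), was at 0.75 without WT 14-day replicate 1 (adjusted p = 0.438) and 3.35 without replicate 2, and lost its call without either 7-day library (adjusted p = 0.0804 and 0.117) and with no filter (0.109).

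Mmp13 in WT lost its call without 14-day replicate 2 (4.18, edgeR adjusted p = 0.374), without either 7-day library (adjusted p = 0.109 and 0.126) and with no filter (0.0553). Mmp14 lost it without 14-day replicate 2 (0.65, adjusted p = 0.0936) or 7-day replicate 1 (1.08, adjusted p = 0.0582), and Timp3 without 14-day replicate 1 (0.52, adjusted p = 0.116), 7-day replicate 1 (0.67, adjusted p = 0.0697) or 7-day replicate 2 (0.62, adjusted p = 0.0993). Without 14-day replicate 1 and replicate 2 the fitted Mmp3 change was 9.83 and 8.06. The fitted Mmp12 change of 4.76 was 8.83 without 7-day replicate 1 and 3.74 without replicate 2.

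In cGAS-KO all 10 genes were lower at 14 than at 7 days, where 17% of all genes were lower, 13.4% higher and 30.4% differed; the days did not overlap in any of the 10, as in 67.3% of all genes. Mmp9, the gelatinase B gene, went from 10.6 and 2.57 CPM to 0.178 and 0.189 CPM (-5.09 ± 0.78, edgeR adjusted p = 0.000636; -3.76 without 7-day replicate 1, -5.77 without replicate 2). Mmp12 fell by 3.24 ± 0.36, Mmp14 by 2.62 ± 0.28, Mmp19 by 2.05 ± 0.27, Mmp2 by 2.01 ± 0.24 and Timp2 by 0.88 ± 0.15, and none of these 5 lost its call without a library. Mmp13 went from 70 to 3 counts, a ratio of 28.3 (9.28 to 140.3), and lost its call without either 14-day library (adjusted p = 0.0605 and 0.0574). Mmp3 fell by 2.89 ± 0.83 (adjusted p = 0.023), with its call lost without 14-day replicate 2 (-2.01, adjusted p = 0.114), without 7-day replicate 1 (adjusted p = 0.108) or 2 (0.0552), under DESeq2 (0.127) and with no filter (0.07), and with a change of -6.20 without 14-day replicate 1.

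Timp1 fell by 1.94 ± 0.59 in cGAS-KO (edgeR adjusted p = 0.0292). Its call was lost without 7-day replicate 1 (-1.23, adjusted p = 0.249) or either 14-day library (adjusted p = 0.129 and 0.107), with no filter (0.125) and without the WT 7-day and STING-KO 14-day groups (0.0569). Timp3 fell by 0.62 ± 0.19 (adjusted p = 0.0294), a call lost without 7-day replicate 1 (-0.31, adjusted p = 0.305), 14-day replicate 1 (-0.70, adjusted p = 0.0827) or 14-day replicate 2 (-0.58, adjusted p = 0.119), and in a fit of only these libraries (0.0514).

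In STING-KO 9 of the 10 genes were lower at 14 than at 7 days, where 29.5% of all genes were lower, 27.4% higher and 56.9% differed. The same 9 did not overlap between the days, against 77.8%, and their calls held without each of the 4 libraries in turn. Mmp12 went from 69.0 and 103 CPM to 0.180 and 0.0651 CPM, a count ratio of 694 (271 to 2547). Mmp13 had a ratio of 247 (105 to 761) and Mmp3 one of 167 (65.0 to 615). The sizes depend on single libraries: the fitted change of Mmp3, -7.29, was -6.27 and -11.59 without 14-day replicates 1 and 2, that of Mmp12, -9.35, was -10.22 without 14-day replicate 1, and that of Mmp13, -7.91, was -7.19 without 7-day replicate 1. The inhibitors Timp1 and Timp2 fell by 4.62 ± 0.78 and 1.35 ± 0.15. Timp3 stood at 97.6 and 77.9 CPM at 7 days and 100.1 and 86.3 CPM at 14 days (0.09 ± 0.19, edgeR adjusted p = 0.714), and its sign turned without STING-KO 14-day replicate 1 (-0.02) or 7-day replicate 2 (-0.08).

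The difference between these time courses was tested as an interaction. The change with time was lower in cGAS-KO than in WT for all 10 genes, where 21% of all genes were lower, 15.7% higher and 36.7% differed, and lower in STING-KO than in WT for 9, where 27.6% were lower, 24.3% higher and 51.9% differed. Mmp2 differed by -4.86 ± 0.38 in cGAS-KO and -5.94 ± 0.40 in STING-KO (edgeR adjusted p = 3.67e-06 and 3.32e-07), Mmp14 by -3.79 ± 0.40 and -4.72 ± 0.41, and Timp2 by -1.71 ± 0.22 and -2.18 ± 0.22. Timp3 differed by -1.28 ± 0.27 in cGAS-KO (adjusted p = 0.00305) and by -0.57 ± 0.27 in STING-KO (adjusted p = 0.0965). The fitted interactions of Mmp3, Mmp12 and Mmp13 depend on single libraries. In STING-KO that of Mmp3, -16.50, was -20.82 without STING-KO 14-day replicate 2 and -15.36 without WT 14-day replicate 2, that of Mmp12, -14.11, was -18.18 without WT 7-day replicate 1, and that of Mmp13, -14.50, was -12.10 without WT 14-day replicate 2. In cGAS-KO that of Mmp3, -12.10, was -15.38 without cGAS-KO 14-day replicate 1, that of Mmp12, -8.00, was -12.09 without WT 7-day replicate 1, and that of Mmp13, -11.29, was -8.88 without WT 14-day replicate 2. Calls in cGAS-KO were lost for Mmp13 without WT 14-day replicate 2 (adjusted p = 0.11) and for Mmp9 without WT 14-day replicate 1 (0.051). For Timp1 the interaction of -4.54 ± 0.97 in cGAS-KO was -2.71 without WT 14-day replicate 1, -5.29 without WT 14-day replicate 2 and -3.77 without cGAS-KO 7-day replicate 1, and that of -7.22 ± 1.11 in STING-KO was -5.37 and -7.98 without the WT 14-day libraries. The Mmp9 interaction of -4.28 ± 1.14 in cGAS-KO was -2.90 and -4.90 without 7-day replicates 1 and 2. Both interactions share the 4 WT libraries. Each equals the difference from WT at 14 days minus that at 7 days, so it is not independent of those comparisons.

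Mmp13, Mmp12 and Mmp3 lie in a cluster of 10 metalloproteinase genes that spans 427 kb of chromosome 9 (mm10, 7272514 to 7699585). Of the other 7 genes of the cluster, Mmp8, the neutrophil collagenase, was at 0 and 0.0511 CPM in WT, 10.6 and 14.2 in cGAS-KO and 11 and 14.9 in STING-KO at 7 days, and Mmp27 at 0.0561 and 0 CPM, 7.84 and 12.4 CPM, and 9.69 and 8.16 CPM. Mmp10, a stromelysin close to Mmp3 in sequence, had counts only in the 4 knockout-labelled libraries at 7 days, 1.03 and 1.08 CPM in cGAS-KO and 6.54 and 5.61 CPM in STING-KO, at least 6.55-fold and at least 37.8-fold above the WT floor. Mmp1b had 3 counts in all 12 libraries, and Mmp1a, Mmp7 and Mmp20 had none. In Mmp13, Mmp12, Mmp3 and Mmp10 both cGAS-KO libraries lay below both STING-KO libraries at 7 days. Only Mmp13 and Mmp12 were called, and both calls were lost in a fit of only the libraries compared. Mmp3 (edgeR adjusted p = 0.142) and Mmp10 (-2.52 ± 0.36, adjusted p = 0.0696) did not pass. In Mmp8 and Mmp27 cGAS-KO and STING-KO overlapped (-0.06 ± 0.27 and 0.19 ± 0.36, adjusted p = 0.992 and 0.971). The difference between these genes was not tested.

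At 14 days Mmp8 was 1 of the 6 genes lower in cGAS-KO than in WT, with 0 counts in both cGAS-KO libraries against 1.69 and 3.29 CPM in WT, at least 18.1-fold (edgeR adjusted p = 0.0135). Mmp27 was at 0.0890 and 0 CPM in cGAS-KO against 0.993 and 3.29 CPM in WT, a count ratio of WT to cGAS-KO of 47.5 (12.7 to 399; adjusted p = 0.0956). In STING-KO at 14 days both were lower than WT (adjusted p = 0.000572 and 0.00196), on 3 and 1 counts.

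**Figure D4:**
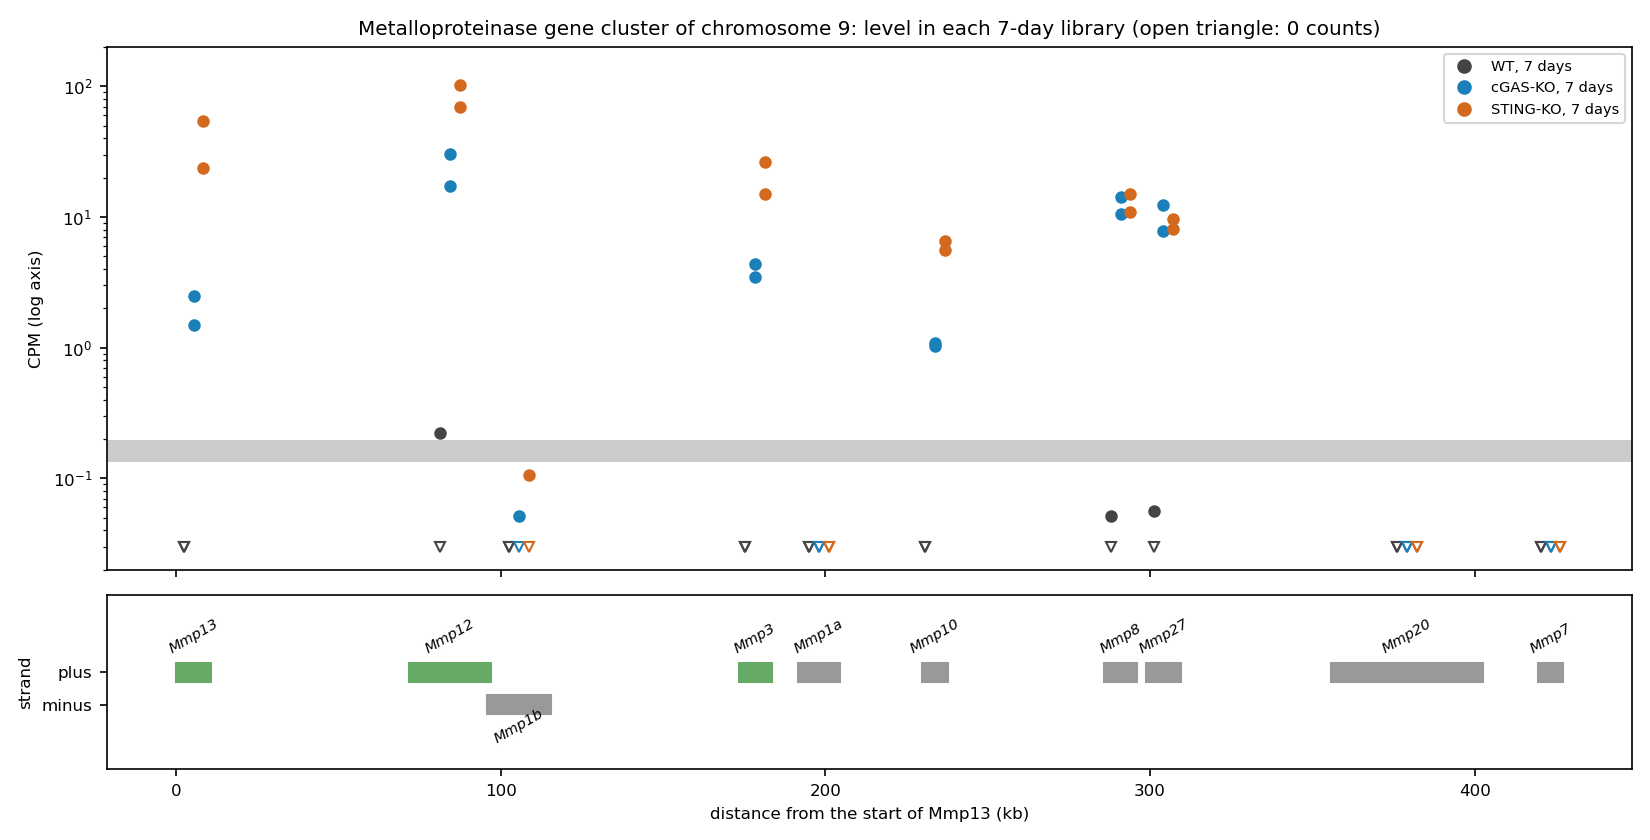
Level in CPM (log axis) of the 10 metalloproteinase genes of the chromosome 9 cluster in the 6 libraries of 7 days, placed at each gene's middle by distance in kb from the start of Mmp13; open triangles are 0 counts, the grey band is 3 counts per library, and the lower panel shows gene extents by strand with the 3 studied genes in green. Only 1 of 2 WT libraries has counts for Mmp12, Mmp8 and Mmp27 and neither has any for the other 7 genes, and the STING-KO points stand above the cGAS-KO points at Mmp13, Mmp12, Mmp3 and Mmp10 but not at Mmp8 and Mmp27.

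The sequences before the transcription starts of Mmp3, Mmp13, Mmp12, Mmp10 and Timp1 are shown because an AP-1 element close to the start is the textbook feature of injury-inducible metalloproteinase promoters. In the RefSeq promoter table for GRCm38.p6, 7 of the 10 genes had an entry. The 250 bases before the start were searched on both strands for the AP-1 element TGANTCA and the Ets-type element AGGAAG, called PEA3; no matches overlap in the windows shown. Capitals mark the matches.
Mmp3 (chr9:7445572-7445821, plus strand): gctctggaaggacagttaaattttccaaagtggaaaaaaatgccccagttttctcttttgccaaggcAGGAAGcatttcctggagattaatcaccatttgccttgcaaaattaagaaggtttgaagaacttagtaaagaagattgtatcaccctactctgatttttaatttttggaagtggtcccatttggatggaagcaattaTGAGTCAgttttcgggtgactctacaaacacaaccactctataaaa
Mmp13 (chr9:7272264-7272513, plus strand): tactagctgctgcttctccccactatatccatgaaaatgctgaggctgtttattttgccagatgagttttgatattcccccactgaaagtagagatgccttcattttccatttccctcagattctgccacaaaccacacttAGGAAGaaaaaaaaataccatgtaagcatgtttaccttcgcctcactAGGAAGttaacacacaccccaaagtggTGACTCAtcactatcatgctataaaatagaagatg
Mmp12, the downstream of its 2 listed starts (chr9:7347124-7347373, plus strand): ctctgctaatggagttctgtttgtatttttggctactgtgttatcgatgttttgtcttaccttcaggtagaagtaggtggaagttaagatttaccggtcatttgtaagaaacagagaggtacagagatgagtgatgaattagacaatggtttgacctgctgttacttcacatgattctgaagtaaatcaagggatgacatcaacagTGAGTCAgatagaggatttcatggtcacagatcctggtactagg
Mmp10 (chr9:7502092-7502341, plus strand): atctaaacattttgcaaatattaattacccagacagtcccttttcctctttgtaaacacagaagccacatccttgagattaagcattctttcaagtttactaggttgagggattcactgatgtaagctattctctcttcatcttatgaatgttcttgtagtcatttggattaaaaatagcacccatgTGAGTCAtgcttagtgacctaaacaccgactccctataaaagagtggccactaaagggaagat
Timp1 (chrX:20869916-20870165, plus strand): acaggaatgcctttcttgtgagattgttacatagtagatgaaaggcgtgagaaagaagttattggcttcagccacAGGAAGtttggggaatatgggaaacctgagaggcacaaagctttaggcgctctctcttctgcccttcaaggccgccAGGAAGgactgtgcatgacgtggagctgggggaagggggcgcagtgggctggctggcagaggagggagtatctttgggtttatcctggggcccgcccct

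The AP-1 letters began 46 bases before the start in Mmp3, 35 in Mmp13, 63 in Mmp10 and 44 before the downstream start of Mmp12, whose window lies within the gene. They were not found in the windows of Mmp14, Timp1, Timp2 or Timp3, or before the upstream start of Mmp12. Of 32851 promoter windows of the same length in the table, 6.75% held AP-1 and 29.5% held PEA3. Among the 15 other family genes with an entry, 5 held AP-1 (Mmp10, Mmp1a, Mmp1b, Mmp20 and Mmp7), all in the chromosome 9 cluster; of these, Mmp1a, Mmp20 and Mmp7 had 0 counts in every library. Mmp8 and Mmp27 had no match to AP-1. A match describes letters in a window, and binding was not measured. The part of these elements in the differences between groups was not tested.

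Other metalloproteinase genes did not all follow the set. Of 16 others, 11 could be tested at 7 days. In cGAS-KO 7 were higher and 3 lower, where 27.8% of all tested genes were higher and 22.4% lower. In STING-KO 6 were higher and 3 lower, against 26.3% higher and 22.6% lower. The share of lower genes among the 11 was thus close to that of all genes. Mmp11, stromelysin 3 of stromal cells, was at 2.97 and 2.15 CPM in WT, 73.2 and 34.9 in cGAS-KO and 32.2 and 24.4 in STING-KO (4.40 ± 0.44 and 3.47 ± 0.44). The 3 lower genes, named after their values were seen, were Mmp17, Mmp24 and Mmp16, membrane-type enzymes with known neuronal expression. Mmp17 was at 214 and 225 CPM in WT, 38.5 and 65.9 in cGAS-KO and 28.5 and 32.8 in STING-KO (-2.07 ± 0.34 and -2.84 ± 0.35; edgeR adjusted p = 0.00039 and 5.57e-05). Mmp24 fell by 2.09 ± 0.26 and 1.97 ± 0.26, and Mmp16 by 1.19 ± 0.30 and 1.65 ± 0.30. In the same libraries the 10 markers of cortical and hippocampal excitatory neurons came to 6639 to 7756 CPM in WT and 946 to 2016 CPM in the labelled knockouts, and their part in these falls was not tested.

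Among other inhibitors, A2m, which encodes the broad plasma inhibitor alpha-2-macroglobulin, was higher than WT at 7 days in cGAS-KO (2.60 ± 0.56, edgeR adjusted p = 0.00259) and STING-KO (4.02 ± 0.59, adjusted p = 0.000191). Timp4, the inhibitor best known from brain and heart, was at 44.8 and 41.2 CPM in WT, 26.9 and 28.9 in cGAS-KO and 42.9 and 49.6 in STING-KO, lower in cGAS-KO (-0.62 ± 0.21, adjusted p = 0.0277) and without a call in STING-KO (0.11 ± 0.21, adjusted p = 0.696). Reck, a membrane-anchored inhibitor, did not pass in either (0.40 ± 0.23 and -0.06 ± 0.24). At 14 days A2m and Timp4 were lower in STING-KO than in WT (-3.12 ± 0.57 and -0.79 ± 0.21).

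Genes that activate proenzymes rose with the set at 7 days. The counts for each list stand against 27.8% and 26.3% of all tested genes higher in cGAS-KO and STING-KO at 7 days, and 17.4% lower in STING-KO at 14 days. Of 11 tested genes of the plasminogen and proprotein convertase list, 9 were higher in cGAS-KO with none lower, and 9 were higher and 1 lower in STING-KO. Plau, the urokinase that makes plasmin, was at 2.69 and 1.43 CPM in WT, 61.1 and 57.6 in cGAS-KO and 145 and 164 in STING-KO (4.85 ± 0.42 and 6.24 ± 0.43; edgeR adjusted p = 4.47e-06 and 1.02e-06). Anxa2, a plasminogen receptor subunit, rose by 5.06 ± 0.27 and 4.79 ± 0.27. At 14 days 7 of the 11 were lower in STING-KO than in WT, among them Plau (-2.10 ± 0.37) and its receptor gene Plaur (-1.92 ± 0.41). The median of the 11 was 2.09 and 2.10 at 7 days and -0.99 in STING-KO at 14 days, against 0.04, 0.03 and -0.03 over all genes.

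Related proteases and surface partners went the same way. All 15 tested ADAM and ADAMTS genes were higher in cGAS-KO at 7 days (27.8% of all genes) and 12 of 15 in STING-KO (26.3%). Adam17, the sheddase of tumour necrosis factor and a target of Timp3, rose by 2.62 ± 0.15 and 2.65 ± 0.15, and Adam8, a leukocyte sheddase, by 4.11 ± 0.28 and 5.07 ± 0.29; at 14 days 9 of the 15 were lower in STING-KO than in WT, Adam8 by -3.05 ± 0.30. All 9 surface partners were higher in both at 7 days. Cd63, which encodes the tetraspanin that binds Timp1, rose by 3.73 ± 0.29 and 4.07 ± 0.30, and Itgb1, an integrin chain, by 2.74 ± 0.16 and 2.67 ± 0.16.

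Of the cytokines and receptors known to induce metalloproteinases, 12 of 12 tested were higher in cGAS-KO and 10 of 12 in STING-KO at 7 days (27.8% and 26.3% of all genes), and 11 of 12 were lower in STING-KO at 14 days (17.4%). Tgfb1 rose by 4.53 ± 0.30 and 4.90 ± 0.30, and its receptor gene Tgfbr2 by 3.78 ± 0.26 and 3.71 ± 0.26. Genes of AP-1, Ets and Runx factors were mixed at 7 days: 5 of 14 were higher and 3 lower in cGAS-KO, and 6 higher and 4 lower in STING-KO (22.4% and 22.6% of all genes were lower), with medians of 0.22 and 0.39. Atf3, a stress-induced AP-1 family factor, rose by 6.09 ± 0.51 and 6.92 ± 0.51, and Spi1, the Ets factor of myeloid cells, by 4.78 ± 0.26 and 5.17 ± 0.27. At 14 days 7 of the 14 were lower in STING-KO than in WT, Spi1 by -2.55 ± 0.24, while Ets2 was higher (1.24 ± 0.16).

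Genes of the substrates were tested too. Of 16 basement membrane genes 15 were higher in cGAS-KO and 14 in STING-KO at 7 days (27.8% and 26.3% of all genes), with Nid2 (nidogen) at 3.99 ± 0.26 and 2.98 ± 0.26 and Col4a5 (collagen IV) at 3.68 ± 0.25 and 2.78 ± 0.25. Of 14 interstitial matrix genes 11 were higher and 1 lower in cGAS-KO, and 10 higher in STING-KO, with Col1a2 at 6.51 ± 0.53 and 5.51 ± 0.51. At 14 days 9 of 16 and 9 of 14 were lower in STING-KO than in WT (17.4% of all genes), and the laminin gene Lamb1 was higher (1.10 ± 0.23). Of 9 tight junction genes 6 were higher in each labelled knockout at 7 days, led by F11r, a junctional adhesion molecule (2.88 ± 0.31 and 2.76 ± 0.31), and 5 were lower in STING-KO at 14 days. In cGAS-KO against WT at 14 days no gene of these lists of activators, related proteases, partners, inducers, factors, substrates and junctions passed the edgeR test, and 0 to 4 genes of a list were below an unadjusted p of 0.05. Of all 19822 tested genes 6 passed, and 2185 were below that unadjusted p.

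Some cell type lists moved with the set and others did not. The cortical and hippocampal markers had 8 of 10 genes lower at 7 days in each labelled knockout, against 22.4% of all tested genes in cGAS-KO and 22.6% in STING-KO. All 10 striatal markers were higher in STING-KO than in WT at 14 days, against 16.5% of all genes. The 12 monocyte and macrophage markers summed to 14.1 to 38.6 CPM in WT, 5601 to 5897 in cGAS-KO and 12579 to 15100.0 in STING-KO at 7 days, and to 943 to 1500.0, 154 to 174 and 30.8 to 44.2 CPM at 14 days. At 7 days 12 of them were higher in cGAS-KO and 10 in STING-KO, against 27.8% and 26.3% of all genes. At 14 days 2 were lower than WT in cGAS-KO (0.0303% of all genes). In STING-KO 8 were then lower and 1 higher, against 17.4% and 16.5%. The 10 microglial markers summed to 229 to 239, 2417 to 2738 and 3121 to 3458 CPM at 7 days, and to 1936 to 2004, 1704 to 1714 and 433 to 835 CPM at 14 days. The 10 fibroblast and meningeal markers summed to 111 to 133, 2382 to 3906 and 1325 to 1677 CPM at 7 days, and to 167 to 389, 161 to 167 and 142 to 144 CPM at 14 days. The 10 choroid plexus markers, an epithelium outside the striatum, summed to 86.2 to 148 CPM in WT and 2591 to 4649 CPM in the labelled knockouts at 7 days, and to 59.2 to 407, 99.2 to 305 and 267 to 721 CPM at 14 days. In STING-KO at 14 days no gene of that list was lower than in WT and 1 was higher, against 17.4% and 16.5% of all genes. In each of these 4 lists, all markers had counts in every group. Endothelial markers summed to 264 to 269, 519 to 910.0 and 492 to 556 CPM at 7 days and to 389 to 714 CPM at 14 days. Of 10 endothelial markers 9 were higher in cGAS-KO and 8 in STING-KO at 7 days, against 27.8% and 26.3% of all genes. For pericytes and smooth muscle it was 10 and 8 of 10, for oligodendrocytes 7 and 8, and for astrocytes 6 and 7 with 2 and 1 lower. Of 5 tested erythrocyte markers, 5 and 0 were higher. The part of any of these cell types in the differences of the 10 genes was not tested.

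**Figure D5:**
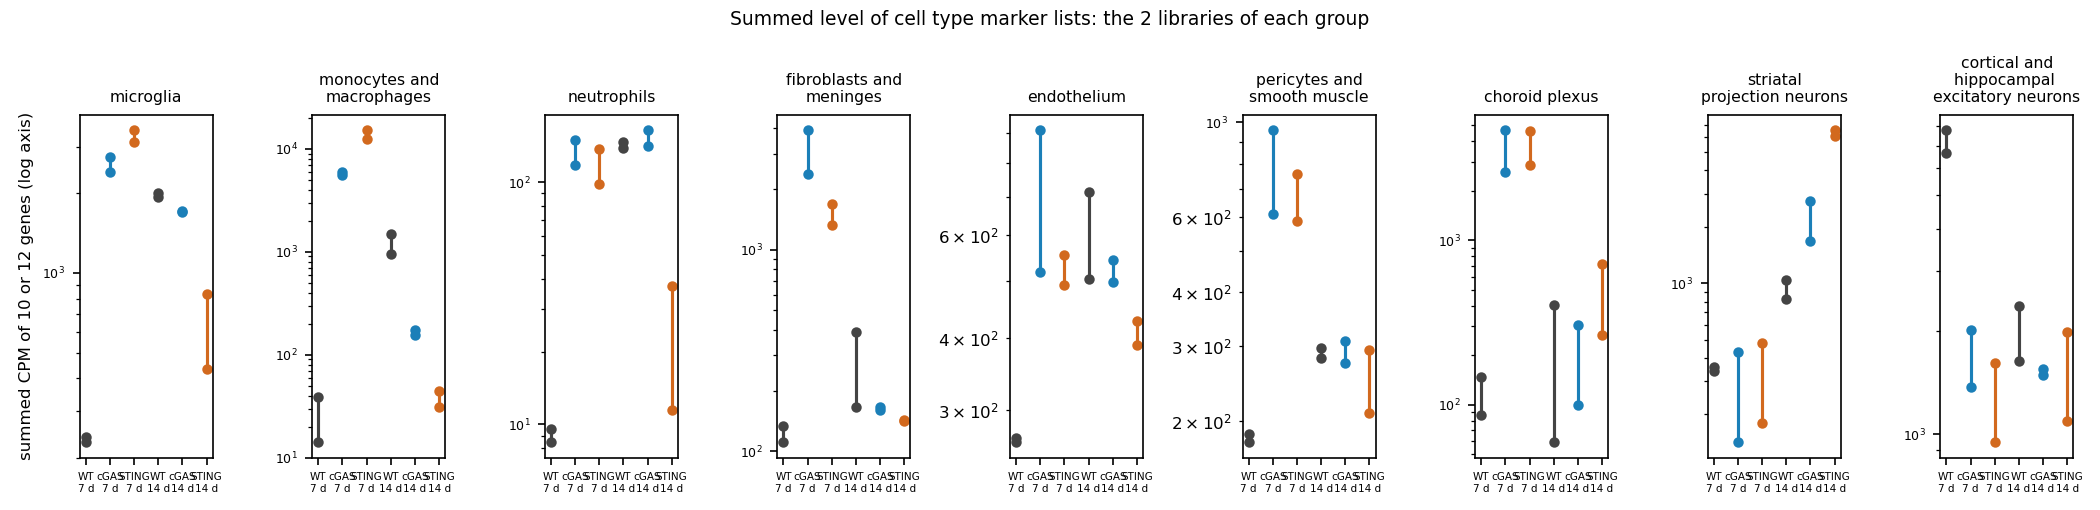
Summed CPM (log axis, 1 scale per panel) of 9 marker lists in the 6 groups; the 2 points joined by a line are the libraries of a group, WT in grey, cGAS-KO in blue and STING-KO in orange. Monocyte and macrophage markers run from 14.1 to 38.6 CPM in WT to 12579 to 15100.0 CPM in STING-KO at 7 days, and striatal projection neuron markers are highest in STING-KO at 14 days, at 6117 to 6545 CPM.

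Across the 12 libraries the genes differed in how closely they ran together, given here as Pearson's r of log2 CPM with 0.1 CPM added. The libraries fall into 6 groups that carry most of the variation, so r describes these libraries only. Mmp3, Mmp12 and Mmp13 have libraries with 0 counts, which the added 0.1 sets at -3.32. Their r values and closest genes therefore depend on that choice. Mmp12 and Mmp19 had the highest r within the set (0.98), and the r of Timp3 with the other genes ran from 0.28 with Mmp9 to 0.64 with Timp2. Mmp9 reached at most 0.73, with Mmp13 and Mmp14. Among 15152 genes with a mean log2 CPM of at least 1, the closest to Mmp14 were Ecm1 (0.993), Col1a1 (0.991) and Mrc2 (0.989), the last 2 a fibrillar collagen and a collagen-uptake receptor. The closest to Mmp12 were Apobr (0.988), Cdt1 (0.987) and Mmp19 (0.983). For Mmp3 they were Cyfip1 (0.971), Atp6v0d2 (0.955) and Cd38 (0.948), for Mmp13 Cmpk1 (0.943), Bik (0.943) and Gch1 (0.942), and for Timp1 Aifm2 (0.981), Rpl27 (0.980) and Nek6 (0.979). Col1a1 itself stood at 10.5 and 10.5 CPM in WT, 1566 and 1032 in cGAS-KO and 694 and 590.3 in STING-KO at 7 days.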

How the data were processed

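RNA sequencing libraries of striatum were polyA+ and read in pairs of 150 bases on an Illumina HiSeq, per the labels' protocols. The authors deposited 1 table of unnormalised gene-level counts per library, keyed by Ensembl ID and made with HISAT2 and featureCounts on mm10, per the submitters' processing notes; versions, annotation and strand setting are not given in the sources used here. Without a known strand setting, reads of overlapping genes cannot be told apart. Counts were whole numbers in every table. Of 54532 IDs, 54409 had a symbol in GENCODE M21, from which coordinates, exon lengths and coding sequences were taken; promoters are from RefSeq (GRCm38.p6).

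Library totals, 15956242 to 22126213 counts, set the precision: 3 counts equal 0.133 to 0.195 CPM. CPM used TMM-scaled totals. Tests used edgeR 4.0.16 in R 4.3.3: filterByExpr (minimum count 10, total 15) kept 19822 genes, all 12 libraries entered 1 fit of 6 groups with 6 residual degrees of freedom (glmQLFit, robust, not the legacy form; biological coefficient of variation 0.194), and 11 contrasts were each adjusted by Benjamini-Hochberg. Each SE was derived from the log2 change and its F statistic (absolute change divided by root F). The steps were tested on simulated counts. The 10 genes, the gene lists and the tests were chosen with earlier results of these data known. The text names the 10 genes in every comparison, up to 3 genes per list with the smallest p and a mean log2 CPM of at least 0, the cluster genes with a count, Cgas and Tmem173, and the 3 genes with the highest r; other genes are examples shown for markers, overlaps or counts; a gene that the rule also names is not reported here. Among the lists, markers of astrocytes, oligodendrocytes, pericytes and erythrocytes were computed too, with only their counts of called genes at 7 days given.

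Replicate numbers did not pair libraries (r of replicate differences -0.09 to 0.09). Alternatives were DESeq2's size factors, the DESeq2 1.42.0 Wald test, no filter, only the libraries compared, a replicate block, the legacy fit and leaving out each library, where a lone library is taken to vary like the other groups; a fit without the WT 7-day and STING-KO 14-day groups, and the lower bounds without each library, were added after seeing the data. Count ratios carry exact binomial intervals. Figures used matplotlib 3.10.9 in python 3.11.15.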

Additional observations from a re-analysis of the deposited data

Results flagged for a closer look

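For all 10 genes the change from 7 to 14 days differed between WT and the libraries labelled cGAS-KO, and for 9 between WT and those labelled STING-KO, by the interaction test in edgeR. This test restates the differences from WT at 14 and 7 days on the same libraries and is not independent of them. The differences in log2 change, cGAS-KO minus WT, were -4.86 for Mmp2, -12.10 for Mmp3, -4.28 for Mmp9, -8.00 for Mmp12, -11.29 for Mmp13, -3.79 for Mmp14, -3.88 for Mmp19, -4.54 for Timp1, -1.71 for Timp2 and -1.28 for Timp3. STING-KO minus WT they were -5.94 for Mmp2, -16.50 for Mmp3, -3.98 for Mmp9, -14.11 for Mmp12, -14.50 for Mmp13, -4.72 for Mmp14, -5.42 for Mmp19, -7.22 for Timp1 and -2.18 for Timp2. The values for Mmp3 and Mmp13 depend on the prior count, since both had 0 counts in WT at 7 days, and those for Mmp12 rest on 4 counts there. When a library was left out, the cGAS-KO values ran from -15.38 to -10.95 for Mmp3, -12.09 to -6.98 for Mmp12 and -12.14 to -8.88 for Mmp13, and the STING-KO values from -20.82 to -15.36, -18.18 to -13.10 and -15.34 to -12.10. Of all tested genes, 21% and 27.6% differed in this direction and 15.7% and 24.3% in the other.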

How the results depend on the processing

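For cGAS-KO against STING-KO at 7 days the 2 calls became 0 under the legacy fit, 0 with only the libraries compared, 1 without the WT 7-day and STING-KO 14-day groups, and 0 to 2 when a library was left out. For cGAS-KO against WT at 14 days the count of 0 became 1 under DESeq2 (Mmp9). Leaving out a library gave 3 to 3 calls for cGAS-KO against STING-KO at 14 days, 6 to 9 for cGAS-KO from 7 to 14 days, 3 to 5 for STING-KO against WT at 14 days and 5 to 7 for WT from 7 to 14 days; such fits also have less data. For the other counts and settings the number stayed within 1.5 times. Replicate numbers did not pair the libraries; with the replicate block, 10 genes were called for cGAS-KO and 10 for STING-KO against WT at 7 days, and Timp3 gained a call for cGAS-KO against STING-KO at 14 days (-0.45, adjusted p = 0.032) and for the STING-KO interaction (-0.56, adjusted p = 0.038).

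Signs turned only when a library was left out, in 11 results none of which was called, over ranges of -0.10 to 0.06 (Mmp2), -0.48 to 0.35 (Mmp14) and -1.38 to 1.25 (Timp1) for cGAS-KO against WT at 14 days, -2.84 to 0.39 (Mmp13) for STING-KO against WT at 14 days, -1.29 to 6.31 (Mmp3) for cGAS-KO against STING-KO at 14 days, -0.08 to 0.25 (Timp3) for STING-KO from 7 to 14 days, and for cGAS-KO against STING-KO at 7 days -0.01 to 0.43 (Mmp14), -0.05 to 0.48 (Timp3), -1.77 to 0.24 (Mmp9), -0.38 to 0.04 (Mmp19) and -0.94 to 0.23 (Timp1). The causes were not tested. DESeq2's size factors moved the median of all genes by at most 0.05. Depth limits Mmp3 and Mmp12 in STING-KO (4 counts each) and Mmp9 and Mmp13 in both labelled knockouts (3 to 10 counts) at 14 days.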
